A study of Mus musculus with 24 samples.

Results

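The MAPK output and feedback genes are a fixed set of 10 genes that the RAS, RAF, MEK and ERK kinase cascade switches on when it is active, and they were followed here in mouse melanoma cells that lack MITF, TFEB or TFE3. The set was taken by symbol and holds the phosphatases Dusp4 and Dusp6, the feedback inhibitors Spry1, Spry2, Spry4 and Spred1, the ETS transcription factors Etv4 and Etv5, and the output genes Phlda1 and Fosl1. Of the 10 members, 8 had a row in the normalised table of 12010 genes, and Spry4 and Fosl1 had none, so they are not analysed here. B16-F10-luc2 is a mouse melanoma line that carries a luciferase reporter, and 8 lines of it were sequenced with 3 libraries each. The lines were the parental cells, the MITF KO, the TFE3 KO, the TFEB KO, the TFEB/TFE3 DKO, the MITF/TFE3 DKO, the MITF/TFEB DKO and the TKO, which lacks all 3 factors. All were grown untreated in medium with serum. The KO lines were isolated as clones, and the MITF KO had been made earlier and carries a frameshift mutation in Mitf. TFEB and TFE3 were then inactivated with Cas9 in the parental cells or in that MITF KO, so the 4 lines without MITF share the edited Mitf gene, and a small amount of truncated MITF protein may persist in them. Nothing states that the 3 libraries of a line came from separate cultures. The p-values below measure the spread between libraries within a line, pooled over the 8 lines, and not a spread between clones. A member therefore has the same SE in each comparison with the parental line. The effect of a knockout and of the clone it was made in cannot be told apart.

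When growth factors or an oncogene activate RAS, the kinases RAF, MEK and ERK are switched on in turn, and ERK then drives transcription of genes that both carry out and restrain the signal. The dual-specificity phosphatases remove the activating phosphates from ERK, Sprouty and Spred proteins act upstream at the level of receptors and RAS, and the ETS factors Etv4 and Etv5, of the PEA3 family, are transcriptional effectors. In melanoma this cascade is the main oncogenic pathway, and the summed level of such genes is widely used as a measure of its output. MITF is the master regulator of the melanocyte lineage, and TFEB and TFE3 are related factors that bind the same kind of E-box and control lysosomal and metabolic genes.

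The libraries were made from the 3′ ends of transcripts, so read numbers do not depend on transcript length and are compared within a gene only, never between genes. Levels are given as CPM, the reads of a gene scaled to a common library total and adjusted by the TMM method. The 24 libraries held 18300902 to 26667877 reads on genes, and 1 read was worth 0.0364 to 0.0545 CPM. All 9 melanocyte lineage markers had a row, and their summed level was 15646 to 39710 CPM over the libraries, lowest in the TKO and the MITF/TFEB DKO (15646 to 19208 CPM) and highest in the MITF KO (37669 to 39710 CPM). Of the markers of other cell types, 2 of 5 fibroblast genes (9.73 to 45.3 CPM in sum), 1 of 6 immune genes (Lyz2, 0 to 3.9 CPM), 1 of 3 endothelial genes (Pecam1, 0 to 31.6 CPM) and 2 of 3 keratinocyte genes (0.740 to 19.7 CPM) had a row. The defining markers Ptprc, Cdh5 and Krt5 had none. These sums differed between lines. The keratinocyte sum was 7.72 to 19.7 CPM in the lines without both MITF and TFEB, through Krt14, and 0.740 to 2.997 CPM elsewhere, and the immune gene was at 1.27 to 3.9 CPM in the TKO, the MITF/TFEB DKO and the MITF/TFE3 DKO and at 0 to 0.654 CPM elsewhere. Pecam1 was at 25.5 to 31.6 CPM in the TFEB/TFE3 DKO and at 0 to 2.03 CPM in the lines without MITF. Their part in the results was not tested. Tfe3 was at 8.01 to 21.7 CPM in the lines without TFE3 and at 31.1 to 62.5 CPM in the others, and Tfeb was at 2.06 to 5.27 CPM in the lines without TFEB and at 7.87 to 22.7 CPM in the others. The Mitf transcript persisted at 326 to 1470 CPM in the lines labelled as lacking MITF, so its level does not check those labels.

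On the mouse genome build GRCm39 the 8 measured members lie on 7 chromosomes. Etv4 (ENSMUSG00000017724) lies on the minus strand of chromosome 11 at 101660568 to 101676197, Etv5 (ENSMUSG00000013089) on the minus strand of chromosome 16 at 22200052 to 22259662, Dusp4 (ENSMUSG00000031530) on the plus strand of chromosome 8 at 35274442 to 35287048 and Dusp6 (ENSMUSG00000019960) on the plus strand of chromosome 10 at 99086564 to 99103361. Phlda1 (ENSMUSG00000020205) also lies on chromosome 10, at 111342147 to 111344506, and Spred1 (ENSMUSG00000027351), Spry1 (ENSMUSG00000037211) and Spry2 (ENSMUSG00000022114) lie on chromosomes 2, 3 and 14. Reads of 3′-end libraries were taken to fall in the last 1000 bases of the annotated gene, and read positions were not examined. In that stretch no other annotated gene lies on the same strand in any of the 8. On the opposite strand a long noncoding RNA gene overlaps Dusp6 (Gm34921) and Phlda1 (Gm28592), neither has a row, and whether reads were counted by strand is not given in the sources used here.

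Of the 8 measured members, 5 have a promoter entry in the RefSeq table (build GRCm38.p6), namely Dusp6, Spry1, Spry2, Spred1 and Etv5, while Dusp4, Etv4 and Phlda1 have none. The promoters of Dusp6 and Etv5 are shown because both members fell in the MITF KO but differ from each other in the lines that also lack TFEB or TFE3. Each is the 250 bases before a start of transcription, for Etv5 1 of its 2 listed starts, and capitals mark E-boxes of the general form CANNTG, which many helix-loop-helix factors bind and whose middle letters differ by factor. Such an E-box occurs in 66.2% of all 32851 promoters of the table in this window. The stretch for Spry1, whose line means were highest in the TKO and the MITF/TFEB DKO, is shown for its CACATG. This reads CATGTG on the other strand.
Dusp6, chr10:99262981-99263230, plus strand: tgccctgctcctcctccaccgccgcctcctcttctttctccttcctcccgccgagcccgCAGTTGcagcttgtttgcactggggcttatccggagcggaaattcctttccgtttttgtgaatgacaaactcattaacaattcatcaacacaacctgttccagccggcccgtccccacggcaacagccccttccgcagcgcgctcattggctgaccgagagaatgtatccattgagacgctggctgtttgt
Etv5, chr16:22439571-22439820, minus strand: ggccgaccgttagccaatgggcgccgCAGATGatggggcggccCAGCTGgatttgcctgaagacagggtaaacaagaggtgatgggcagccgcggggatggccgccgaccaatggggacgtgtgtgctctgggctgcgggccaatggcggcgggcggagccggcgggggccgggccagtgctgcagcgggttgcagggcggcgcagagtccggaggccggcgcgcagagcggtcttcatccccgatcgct
Spry1, chr3:37639859-37639888, plus strand: ccgcgtgattgaCACATGatatcaccgggg
The Dusp6 window holds 1 E-box and the Etv5 window 2, against a median of 1 over all promoters, and none of the 3 has the letters preferred by the MITF family. Neither window, nor those of Spry2 and Spred1, holds CACGTG or CATGTG, the E-boxes preferred by MITF, TFEB and TFE3, the ETS motif CCGGAAG or the AP-1 motif TGACTCA on either strand within 300 bases around the start. CATGTG stands in 14.2% of all promoters, CACGTG in 7.15%, its extended form TCACGTGA in 0.974%, CCGGAAG in 8.86% and TGACTCA in 5.2%. These counts are descriptions of letters in short windows and say nothing of binding elsewhere.

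Against the parental line, a member was called if it changed at least 2-fold with an unadjusted limma p under 0.05, the threshold the study used, on the log2(CPM + 1) scale. On that scale the change of a weakly expressed gene is understated. The 7 comparisons share the parental libraries. Over the 56 pairs of a member and a KO line, 12 were called lower and 0 higher, and all 12 fell in the 4 lines without MITF. All 12 had an adjusted p under 0.05. In bulk RNA, fewer cells that express a gene and less of its RNA in each cell cannot be told apart. In the MITF KO 3 of 8 members fell (Dusp6, Etv4 and Etv5), where 2.99% of all genes were called lower and 3.29% higher. In the MITF/TFE3 DKO 2 fell (Etv4 and Etv5), against 2.37% of all genes lower and 3.5% higher. In the MITF/TFEB DKO 4 fell (Dusp4, Spry2, Etv4 and Etv5), against 4.94% lower and 8.78% higher, and in the TKO 3 fell (Dusp4, Etv4 and Etv5), against 6.41% lower and 8.28% higher. The lines that kept MITF had no member called, with backgrounds of 1.34% lower and 0.366% higher for the TFE3 KO, 0.591% and 0.192% for the TFEB KO, and 0.383% and 0.575% for the TFEB/TFE3 DKO. With 0 calls among them, limma's unadjusted p was under 0.05 for 0 members in TFE3 KO cells, 3 in TFEB KO cells and 3 in the TFEB/TFE3 DKO, and edgeR and DESeq2 also called 0 there. The median log2 fold change of the 8 members was -0.81 for the MITF KO, -0.63 with TFE3 also lost, -1.02 with TFEB also lost and -0.57 for the TKO, where the median of all genes lay between 0.000594 and 0.0155. At an adjusted p under 0.05 in either direction, 8 of 8 members passed in the MITF/TFEB DKO (56.1% of all genes), 7 in the MITF KO (37.8%), 7 in TKO cells (56.2%) and 5 in the MITF/TFE3 DKO (41.9%). In the lines with MITF 2 passed in the TFEB KO (4.84%), 1 in the TFEB/TFE3 DKO (8.81%) and 0 in the TFE3 KO (12.3%).

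**Figure D1:**
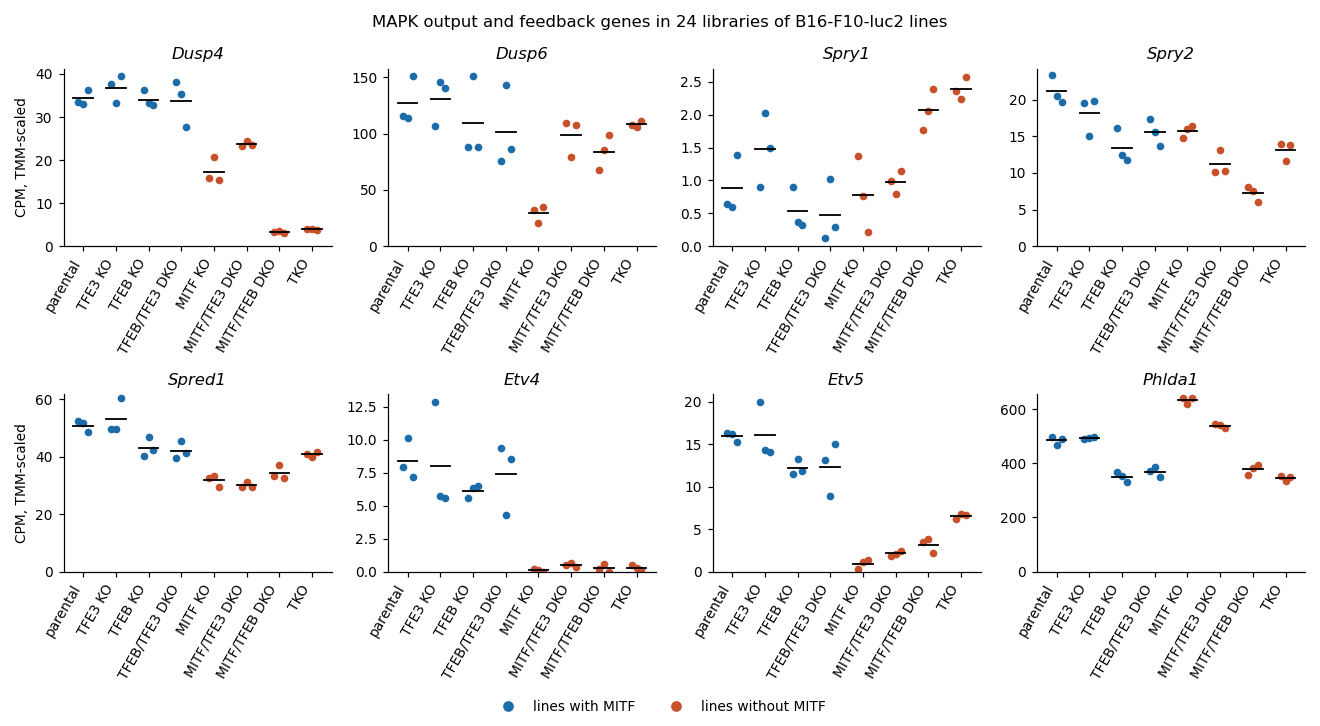
CPM (TMM-scaled, linear axes from 0) of the 8 measured members in each of 24 libraries, by line. Points are libraries, black bars are line means, blue marks lines with MITF and orange lines without it. Etv4 sits at 0 to 0.612 CPM in the 12 libraries without MITF and at 4.25 to 12.8 CPM in the other 12, while Phlda1 separates by TFEB.

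Both ETS factors fell in all 4 lines without MITF, Etv4 to between 1.30% and 5.87% of the parental level by pooled reads. Etv4 was at 7.90, 10.1 and 7.15 CPM in the 3 parental libraries, while those of the MITF KO held 0.188, 0.120 and 0 CPM. The MITF/TFE3 DKO libraries held 0.498, 0.612 and 0.366 CPM, the MITF/TFEB DKO libraries 0.157, 0.588 and 0 CPM, and the TKO libraries 0.474, 0.285 and 0.0860 CPM. None of these 12 libraries came near the 12 libraries of the lines with MITF, which ran from 4.25 to 12.8 CPM. In reads, the 3 parental libraries held 564 from Etv4, the MITF KO 7, the MITF/TFE3 DKO 33, the MITF/TFEB DKO 18 and TKO cells 21. The pooled reads of the MITF KO thus gave 1.30% of the parental level (95% Poisson interval 0.519% to 2.69%), and those of the MITF/TFE3 DKO 5.87% (4.002% to 8.34%). These intervals cover counting error only. The libraries with 0 reads allow up to 3 reads, which is 0.163 CPM in the MITF KO library and 0.119 CPM in the MITF/TFEB DKO library. Etv4 fell by 3.08 ± 0.26 (SE, n = 3) on the log2(CPM + 1) scale in the MITF KO (limma adjusted p = 1.43e-09), by 2.64 in the MITF/TFE3 DKO, by 2.92 in the MITF/TFEB DKO and by 2.87 in the TKO (adjusted p between 1.48e-09 and 2.73e-08). The genes nearest to Etv4 had medians of -0.032, -0.0092, -0.11 and -0.16 in these comparisons. In the lines with MITF the largest difference from parental was -0.39 in the TFEB KO (adjusted p = 0.498).

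Etv5 fell in the same 4 lines but to graded levels. Parental libraries held 16.4, 16.2 and 15.2 CPM of Etv5 and MITF KO libraries 0.330, 1.12 and 1.31 CPM. With TFE3 also lost the level was 1.87, 2.07 and 2.47 CPM, with TFEB also lost 3.49, 3.78 and 2.19 CPM, and with all 3 factors lost 6.16, 6.80 and 6.62 CPM. The TKO libraries stood above all others without MITF and below all with it, whose lowest was 8.90 CPM, while the libraries of the MITF/TFE3 DKO overlapped those of the MITF/TFEB DKO. As a share of parental reads, Etv5 was at 5.74% in the MITF KO, at 13.4% and 19.7% with TFE3 or TFEB also lost, and at 40.7% in the TKO. The 100 expressed genes nearest to Etv5 had medians of -0.11, 0.07, 0.29 and 0.33 in these lines. The fall was 3.18 ± 0.20 (SE, n = 3; adjusted p = 9.51e-12), 2.44 (adjusted p = 1.92e-09), 2.05 (adjusted p = 9.52e-09) and 1.17 (adjusted p = 3.01e-05) on the log2(CPM + 1) scale. With 5 in place of 1 added to the CPM (a pseudocount of 5), the difference in the TKO was -0.86, short of 2-fold. In the TFEB KO and TFEB/TFE3 DKO the log2 difference was -0.36 and -0.37 (adjusted p = 0.388 and 0.280), and in the TFE3 KO it was -0.0024.

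**Figure D2:**
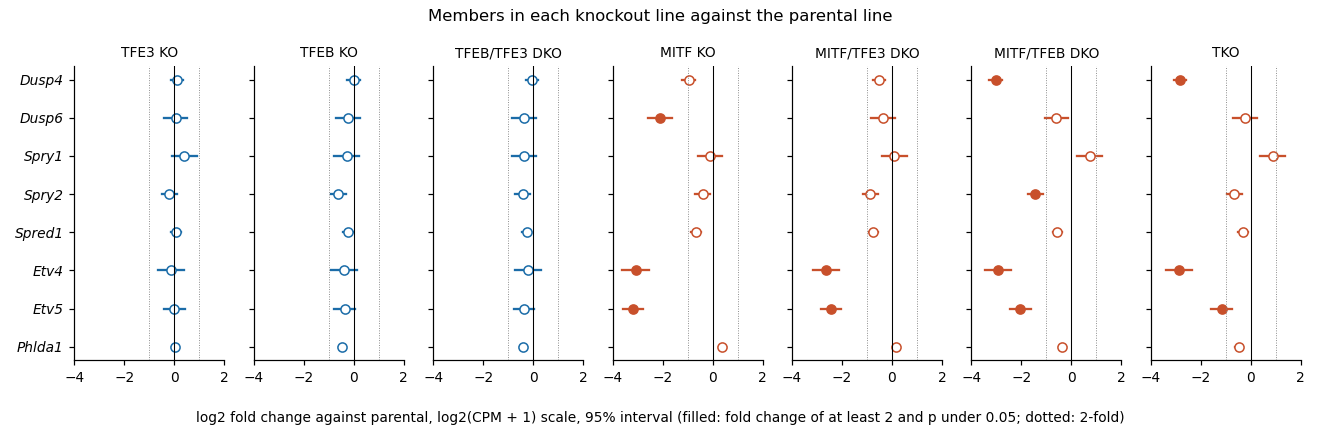
Log2 fold change of each member against the parental line with its 95% interval (limma, log2(CPM + 1) scale), 1 panel for each KO line. Filled points changed at least 2-fold with p under 0.05, and dotted lines mark 2-fold. The 12 filled points lie in the 4 panels without MITF and all are negative.

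The ERK phosphatases differed from the ETS factors and from each other. Dusp6, which acts on ERK in the cytoplasm, was at 116, 114 and 151 CPM in the 3 parental libraries, while those of the MITF KO held 32.0, 20.5 and 34.5 CPM. With TFE3 also lost it was at 109, 79.1 and 108 CPM, with TFEB also lost at 67.2, 85.7 and 98.5 CPM, and in the TKO at 107, 106 and 111 CPM. Only the MITF KO stood apart, with its highest library below the lowest of the other 21 at 67.2 CPM. Dusp6 fell by 2.11 ± 0.23 (SE, n = 3; adjusted p = 1.36e-07) in the MITF KO, to 22.3% of the parental reads. The log2 difference from parental was -0.36 in the MITF/TFE3 DKO (adjusted p = 0.217), -0.60 in the MITF/TFEB DKO (adjusted p = 0.0311) and -0.22 in the TKO (adjusted p = 0.441, 95% interval -0.69 to 0.26). Libraries of the lines with MITF varied widely, as in the TFEB KO, with 88.1, 151 and 88.4 CPM, and the TFEB/TFE3 DKO, with 75.4, 143 and 86.1 CPM. The genes nearest to Dusp6 had medians from -0.20 in the TFEB/TFE3 DKO to 0.34 in the TKO, and 0.09 in the MITF KO.

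Dusp4, a nuclear ERK phosphatase, was at 33.5, 33.1 and 36.4 CPM in the parental libraries, and over all lines that kept MITF it ran from 27.7 to 39.4 CPM. MITF KO libraries held 15.8, 20.6 and 15.3 CPM, and MITF/TFE3 DKO libraries 23.4, 24.3 and 23.5 CPM. MITF/TFEB DKO libraries held 3.33, 3.48 and 3.11 CPM, and TKO libraries 3.97, 3.99 and 3.83 CPM. These 6 libraries, which lack both MITF and TFEB, lay far below the other 18, whose lowest was 15.3 CPM. In the MITF/TFEB DKO Dusp4 fell by 3.03 ± 0.12 (SE, n = 3; adjusted p = 1.39e-15) and in the TKO by 2.84 (adjusted p = 2.22e-15), to 9.64% and 11.5% of the parental reads. In the MITF KO it was lower by 0.96 (log2), just short of 2-fold (adjusted p = 9.23e-07), and without MITF KO replicate 2 the difference was -1.09, past 2-fold. In the TFEB KO, where MITF is present, the difference was -0.01 (95% interval -0.26 to 0.24). The median log2 difference of the 100 expressed genes nearest to Dusp4 on chromosome 8 was 0.43 for the MITF/TFEB DKO and 0.48 for the TKO.

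**Figure D3:**
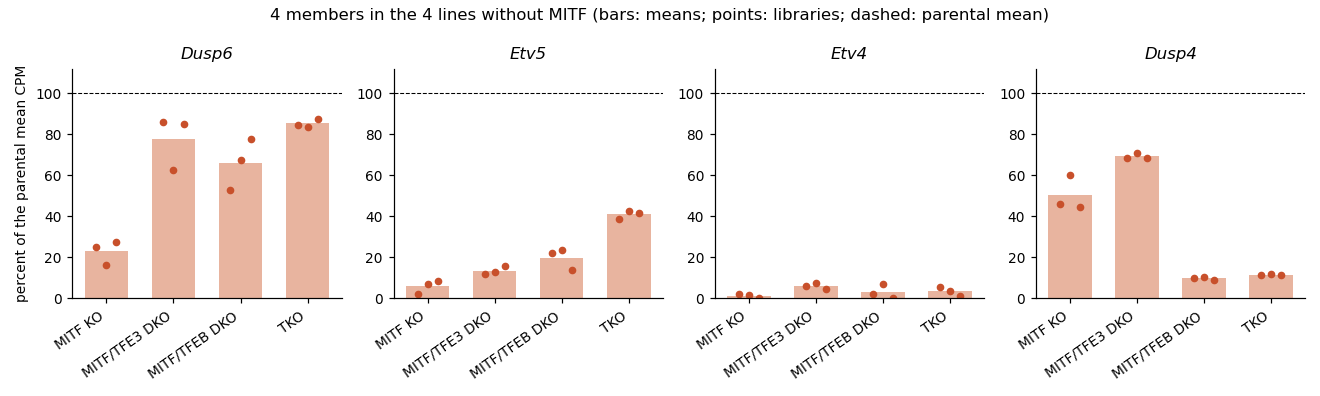
Dusp6, Etv5, Etv4 and Dusp4 in the 4 lines without MITF, as percent of the parental mean CPM (linear axis from 0). Bars are means, points are the 3 libraries of a line and the dashed line is the parental mean. Dusp6 is lowest in the MITF KO, Etv5 is graded, Etv4 is near 0 throughout and Dusp4 is near 10% in the TKO and the MITF/TFEB DKO.

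Among the Sprouty and Spred inhibitors, which restrain signalling from receptors to RAF, only Spry2 was called. Spry2 held 23.4, 20.5 and 19.7 CPM in the parental line. The MITF/TFEB DKO held 8.08, 7.56 and 6.01 CPM, the lowest 3 libraries of the 24. It fell there by 1.44 ± 0.15 (SE, n = 3; adjusted p = 1.68e-08). The TKO, which additionally lacks TFE3, held 13.9, 11.6 and 13.8 CPM, and the log2 difference from parental was -0.65 (adjusted p = 0.00056). Spry2 was also lower by less than 2-fold in the MITF/TFE3 DKO (-0.87, adjusted p = 4.74e-05), the TFEB KO (-0.63, adjusted p = 0.0103) and the MITF KO (-0.40, adjusted p = 0.0315). The 70 expressed genes nearest to Spry2 had medians of -0.13 to 0.10 over the 7 comparisons.

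Spred1, which brings neurofibromin to RAS, was at 52.2, 51.7 and 48.5 CPM in the parental libraries. It was at 29.3 to 37.0 CPM in the MITF KO and in both DKO lines without MITF, below every library of the lines with MITF (39.4 to 60.3 CPM), and at 40.8, 39.9 and 41.5 CPM in the TKO, which overlapped them. The differences from parental were below 2-fold, at -0.66 (log2; adjusted p = 4.15e-06), -0.74 (adjusted p = 9.84e-07), -0.56 (adjusted p = 1.78e-05) and -0.31 (adjusted p = 0.00581) for the MITF KO, the loss of TFE3 or of TFEB in addition, and the TKO. The 100 expressed genes nearest to Spred1 had negative medians in the same comparisons, at -0.26, -0.013, -0.25 and -0.17 against -0.018, -0.011, -0.025 and -0.013 for all genes, and their part in the Spred1 differences was not tested.

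Spry1 was barely expressed, at 0.120 to 2.58 CPM, or 3 to 65 reads in a library. Parental libraries held 15, 13 and 31 reads (0.647, 0.591 and 1.39 CPM), MITF/TFEB DKO libraries 45, 49 and 60 (1.76, 2.06 and 2.39 CPM) and TKO libraries 65, 47 and 60 (2.37, 2.23 and 2.58 CPM). The libraries of these KO lines lay above all parental ones, and the pooled reads gave 236% (95% Poisson interval 174% to 325%) and 274% (203% to 375%) of the parental level. On the log2(CPM + 1) scale the differences were 0.73 (adjusted p = 0.0126) and 0.88 (adjusted p = 0.00337), short of 2-fold. With edgeR on the recovered reads, the log2 fold changes were 1.23 (adjusted p = 0.0529) and 1.44 (adjusted p = 0.0243). DESeq2 gave 1.24 (adjusted p = 0.0395) and 1.44 (adjusted p = 0.0154). Both differences were called by the unadjusted p of either tool, so the call for Spry1 depends on how low counts are handled. The genes nearest to Spry1 had medians of 0.21 and 0.31 in these comparisons, and their part was not tested.

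Phlda1, a pleckstrin homology domain protein whose gene responds to ERK, was lower in every line without TFEB, by less than 2-fold. Among lines with TFEB, the parental libraries held 497, 466 and 491 CPM, the TFE3 KO libraries 489, 495 and 498 CPM, the MITF KO libraries 641, 618 and 641 CPM and the MITF/TFE3 DKO libraries 546, 543 and 529 CPM. Among lines without TFEB, the TFEB KO libraries held 369, 352 and 329 CPM, the TFEB/TFE3 DKO libraries 370, 387 and 351 CPM, the MITF/TFEB DKO libraries 357, 381 and 394 CPM and the TKO libraries 355, 335 and 350 CPM. All 12 libraries without TFEB thus lay below all 12 with it. Such a full separation by TFEB was seen in the lower direction for 9 of 12010 genes, or 0.0749%. This split was noticed in the values and carries no test of its own. The differences from parental were modest, at -0.47 (log2; adjusted p = 2.98e-05) in the TFEB KO, -0.39 (adjusted p = 0.000272) in the TFEB/TFE3 DKO, -0.36 (adjusted p = 4.31e-05) for the MITF/TFEB DKO, -0.48 (adjusted p = 8.67e-07) in the TKO and 0.38 (adjusted p = 4.51e-05) in the MITF KO. The 100 expressed genes nearest to Phlda1 had medians of -0.17, -0.20, 0.31, 0.32 and 0.09 in these comparisons.

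To set the members against MITF status over lines, the 4 line means without MITF were compared with the 4 with it. Unlike those above, these p-values measure the spread between line means. The 4 lines without MITF share the edited Mitf gene of the same earlier MITF KO, so they are not independent replicates of MITF loss. An effect of MITF loss and of that clone cannot be told apart here. At an adjusted p under 0.05, 4 of 8 members were lower without MITF, where 9.08% of all genes were, and 0 were higher, where 10.3% of all genes were. Etv4 differed by -2.70 ± 0.15 (SE, 4 lines against 4; adjusted p = 3.05e-05), Etv5 by -2.02 ± 0.36 (adjusted p = 0.00783), Dusp4 by -1.85 ± 0.53 (adjusted p = 0.0395) and Spred1 by -0.46 ± 0.13 (adjusted p = 0.0412). Dusp6 differed by -0.68 (adjusted p = 0.213), Spry2 by -0.52 (adjusted p = 0.136), Spry1 by 0.47 (adjusted p = 0.233) and Phlda1 by 0.13 (adjusted p = 0.679). Etv4 and Etv5 passed with each line left out in turn, whereas Dusp4 and Spred1 lost the call under most of these exclusions (adjusted p up to 0.0967 and 0.113). By separation of libraries, Dusp4, Etv4 and Etv5 were lower in all 12 libraries without MITF than in all 12 with it, as were 3.46% of all genes.

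Comparisons among the lines without MITF show how the members differ where TFEB, TFE3 or both are also lost. Here too, the loss of a factor and the clone it was made in cannot be told apart. Over 5 such comparisons, which share lines, 5 of 40 pairs were called higher and 4 lower. Relative to the MITF KO, Dusp6 was higher in the MITF/TFE3 DKO (log2 difference 1.75, adjusted p = 3.94e-06), the MITF/TFEB DKO (1.52, adjusted p = 9.54e-06) and the TKO (1.90, adjusted p = 4.29e-07). Etv5 was likewise higher than in MITF KO cells in the MITF/TFEB DKO (1.13, adjusted p = 6.38e-05) and the TKO (2.01, adjusted p = 2.11e-08). With a pseudocount of 5 both fell short of 2-fold (0.46 and 0.96). The former also did so with quantile normalization (0.99) and without MITF KO replicate 1 (0.89). Against MITF KO cells, the MITF/TFE3 DKO was higher in Etv5 by 0.74 (adjusted p = 0.00579), which edgeR (1.21), DESeq2 (1.22) and a pseudocount of 0.25 (1.14) called. Dusp4 was lower than in MITF KO cells in the MITF/TFEB DKO (-2.07, adjusted p = 1.09e-12) and the TKO (-1.88, adjusted p = 1.13e-11), and lower in the MITF/TFEB DKO than in the MITF/TFE3 DKO (-2.52, adjusted p = 5.86e-14). Spry2 was lower in the MITF/TFEB DKO than in the MITF KO (-1.03, adjusted p = 3.28e-06). That difference fell short of 2-fold with a pseudocount of 5 (-0.77) and without MITF/TFEB DKO replicate 3 (-0.93). The shares of all genes called higher and lower were 3.39% and 1.67% for the MITF/TFE3 DKO, 6.91% and 3.99% for the MITF/TFEB DKO and 6.33% and 4.54% for the TKO, each against the MITF KO. Between the MITF/TFEB DKO and the MITF/TFE3 DKO they were 5.7% and 4.05%. Between the TKO and the MITF/TFEB DKO, which differ in TFE3, 0 members were called (0.316% of all genes higher and 1.98% lower), with limma's unadjusted p under 0.05 for Spry2, Spred1 and Etv5. Spry2 was higher in the TKO by 0.79 (adjusted p = 0.000501) and Etv5 by 0.88 (adjusted p = 0.00393), the latter called at 1.05 by edgeR and at 1.04 by DESeq2. In a comparison added after the data were seen, the TKO against the MITF/TFE3 DKO, Etv5 was higher by 1.27 (adjusted p = 1.39e-05) and Dusp4 lower by 2.33 (adjusted p = 1.43e-13), where 5.69% of all genes were called higher and 5.75% lower. With a pseudocount of 5 the Etv5 difference there was 0.69, short of 2-fold. Etv4 was not called in any of these comparisons, with 95% intervals that reached from -0.81 to 0.97. On the recovered reads, edgeR and DESeq2 called Etv4 higher in the MITF/TFE3 DKO than in the MITF KO (2.13 and 2.19), from 33 reads against 7. Spry1 exceeded its MITF KO level by 0.83 (adjusted p = 0.00623) in the MITF/TFEB DKO and by 0.98 (adjusted p = 0.00167) in the TKO. Both were short of 2-fold with limma, but edgeR (1.38 and 1.59) and DESeq2 (1.39 and 1.59) called them.

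Whether losing TFEB or TFE3 had the same effect with and without MITF was tested as an interaction, at an adjusted p under 0.05 over all genes. The 3 interactions share the parental and MITF KO libraries, so they are not independent of each other. For the loss of TFEB 6 of 8 members passed (35.1% of all genes), for the loss of TFE3 2 (20.2%), and for the loss of both 6 (41.4%). The log2 level of Dusp6 differed by 0.04 when TFE3 was lost from parental cells and by 1.75 when it was lost from the MITF KO, an interaction of 1.71 ± 0.33 (SE; adjusted p = 0.000506). For TFEB the interaction of Dusp6 was 1.77 (adjusted p = 0.000179) and for both factors 2.26 (adjusted p = 8.57e-06). Etv5 had interactions of 1.49 (TFEB; adjusted p = 0.000238) and 2.38 (both; adjusted p = 5.87e-07), while 0.75 for TFE3 did not pass (adjusted p = 0.0663). That of Etv5 for TFE3 did pass with edgeR (1.201, adjusted p = 0.0347), DESeq2 (1.202, adjusted p = 0.00928) and a pseudocount of 0.25 (1.15, adjusted p = 0.0374), and also without MITF KO replicate 3 (0.90, adjusted p = 0.0351) or TFE3 KO replicate 1 (0.90, adjusted p = 0.0319). Dusp4 went the other way, with -2.06 ± 0.17 for TFEB (adjusted p = 1.21e-09) and -1.84 for both (adjusted p = 1.11e-08). Spry1 gave 1.12 for TFEB (adjusted p = 0.0126) and 1.35 for both (adjusted p = 0.00287), and Spry2 and Etv4 passed in none of the 3 with limma as described. Etv4 passed for TFE3 with DESeq2 (2.25, adjusted p = 0.0317) and without TFE3 KO replicate 1 (0.92, adjusted p = 0.0450), and Spry2 passed for TFEB after quantile normalization (-0.58, adjusted p = 0.0462). Dusp4 for TFE3 (0.35, adjusted p = 0.148) passed without MITF KO replicate 2 (0.48, adjusted p = 0.0455).

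**Figure D4:**
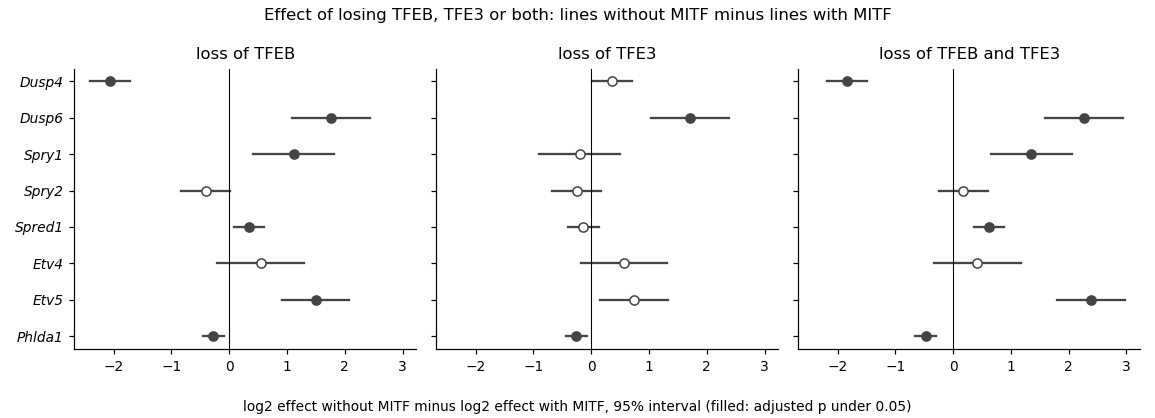
Difference of log2 effects, lines without MITF minus lines with MITF, for the loss of TFEB, TFE3 or both, with 95% intervals (limma, log2(CPM + 1) scale). Filled points have an adjusted p under 0.05. Dusp6 lies above 0 in all 3 panels at 1.71 to 2.26, and Dusp4 lies at -2.06 and -1.84 in the panels where TFEB is lost. All 3 panels use the same parental and MITF KO libraries.

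The patterns of the members were alike to different degrees. Over the 8 line means of log2(CPM + 1), Pearson's r was 0.90 between Etv4 and Etv5, 0.94 between Etv5 and Spred1 and 0.84 between Etv4 and Spred1, against 0.18 between Dusp4 and Dusp6 and -0.81 between Dusp4 and Spry1. These points share the parental origin and the edited Mitf gene, and they are given as a description. Over the 24 libraries, taken as deviations from their line means, r was 0.55 between Etv4 and Etv5, -0.20 between Etv5 and Spred1, -0.18 between Etv4 and Spred1, -0.30 between Dusp4 and Dusp6 and 0.10 between Dusp4 and Spry1. Libraries of 1 line could also differ in opposite senses. In the TFE3 KO, replicate 1 had the lowest Dusp6 of its line (106 CPM, against 146 and 140) and the highest Etv4 (12.8 CPM, against 5.71 and 5.55). In the TFEB/TFE3 DKO, replicate 2 had the highest Dusp6 (143 CPM, against 75.4 and 86.1) and the lowest Etv4 (4.25 CPM, against 9.38 and 8.53) and Etv5 (8.90 CPM, against 13.1 and 15.1). Among 9538 other genes with a mean of at least 5 CPM, the 5 with line means most like those of Dusp6 were Mmadhc (r = 0.96 over 8 lines), Dynll1 (0.95), Tgif2 (0.95), Tead2 (0.95) and Snap29 (0.94), and Etv5 ranked 181st at 0.79. Tgif2 for example had a parental mean of 60.2 CPM and a MITF KO mean of 28.8 CPM.

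A wider list of 92 genes of the pathway, 74 of which had a row, showed changes in both directions. Of the 74, the calls higher and lower numbered 5 and 9 for the MITF KO, 2 and 8 with TFE3 also lost, 14 and 11 with TFEB also lost, and 14 and 9 for the TKO. The shares called lower were 12.2%, 10.8%, 14.9% and 12.2% and those called higher 6.76%, 2.7%, 18.9% and 18.9%, beside the shares of all genes given above. In the lines with MITF 2 pairs were called over the 3 comparisons, Axl lower in the TFE3 KO and Met higher in the TFEB/TFE3 DKO. With a pseudocount of 5, which weighs weakly expressed genes less, 0 comparisons were called for Ksr1, Dusp9, Myc, Epha4, Axl and Egr1, and 2 of 4 were called for Fgfr3. The median log2 difference of the list lay between -0.15 and 0.07 in all 7 comparisons.

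Of the 14 genes for RAS, RAF, MEK and ERK proteins, 11 to 13 were not called in each line without MITF. Rras, a RAS-related GTPase, rose from 19.4, 17.1 and 17.9 CPM in the parental line to 44.6, 44.1 and 40.4 CPM in the MITF KO (log2 difference 1.203) and to 100, 104 and 99.2 CPM in the TKO (2.41, adjusted p = 1.23e-15). Ksr1, a scaffold that holds RAF, MEK and ERK together, fell in all 4 lines without MITF, from 4.75, 7.32 and 5.17 CPM to 0.146, 0.523 and 0.731 CPM in the TKO (-2.20, adjusted p = 1.1e-08). Gab1, an adaptor of receptor signalling, rose in the MITF/TFE3 DKO, the MITF/TFEB DKO and the TKO (1.15, 1.92 and 1.79).

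Of the other dual-specificity phosphatases, Dusp9, which like Dusp6 acts on cytoplasmic ERK, fell in all 4 lines without MITF, from 5.26, 3.46 and 4.76 CPM to 0.457, 0.141 and 0 CPM in the MITF/TFE3 DKO (-2.20, adjusted p = 5.06e-08). Dusp8, which prefers JNK and p38 kinases, rose in the MITF KO (1.63), the MITF/TFEB DKO (1.26) and the TKO (1.46). Rgs2, an inhibitor of G protein signalling, rose in the same 3 lines (1.16, 2.89 and 2.50). Among the immediate early genes Myc fell in the MITF/TFE3 DKO, the MITF/TFEB DKO and the TKO (-1.13, -1.15 and -1.40), and Egr1, the largest change of that list, rose in the TKO from 0.302, 0.955 and 1.21 CPM to 4.66, 3.38 and 3.44 CPM (1.43, adjusted p = 8.73e-06).

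Etv1, the remaining PEA3 family member, also fell in all 4 lines without MITF. Its level was 12.7, 11.7 and 12.1 CPM in parental libraries. MITF KO libraries held 2.73, 2.53 and 2.29 CPM, MITF/TFE3 DKO libraries 2.08, 4.66 and 4.11 CPM, MITF/TFEB DKO libraries 1.22, 1.47 and 1.95 CPM and TKO libraries 0.911, 1.57 and 0.774 CPM. The log2 differences of Etv1 were -1.91, -1.56, -2.38 and -2.68 (adjusted p between 5.33e-11 and 1.23e-06). Epha4, an ephrin receptor, also fell in all 4 lines (-1.10, -1.46, -1.03 and -1.203), as did the receptor of hepatocyte growth factor, Met (-1.50, -2.20, -2.43 and -2.99), which rose in the TFEB/TFE3 DKO (1.18, adjusted p = 5.64e-06). Mknk2, a kinase that ERK activates, fell in the MITF KO, the MITF/TFEB DKO and the TKO (-1.17, -1.34 and -1.63). Fgfr3, a fibroblast growth factor receptor, rose in all 4 lines (1.03, 1.02, 2.14 and 1.81). The receptor kinase Axl fell in the MITF KO (-1.18) and the TFE3 KO (-1.04) and rose in the MITF/TFEB DKO (1.05).

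**Figure D5:**
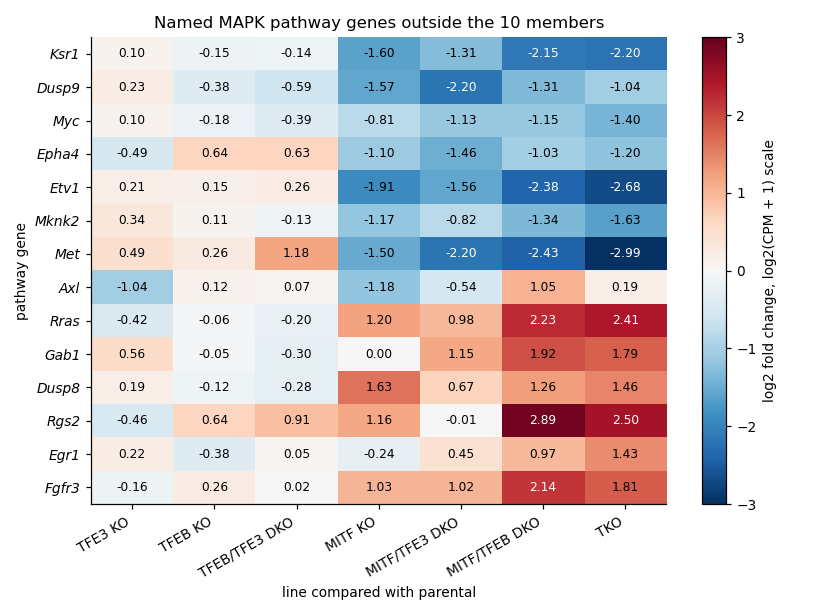
Log2 fold change against the parental line (log2(CPM + 1) scale, colour and printed value) of the 14 named pathway genes outside the members, 1 column for each KO line. Etv1, Ksr1, Dusp9, Epha4 and Met are below -1 in the 4 columns without MITF, and Fgfr3 is above 1 there.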

How the data were processed

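Messenger RNA of B16-F10-luc2 lines was sequenced as 3′-end libraries, 3 in each of 8 lines. The submitters' processing notes name FastQC 0.11.9, Trim Galore 0.6.5, cutadapt 2.10, STAR 2.7.8a, edgeR and the build mm39, without their order; the counting tool, annotation and gene filter are not given in the sources used here. The deposited values are a signal normalized by the authors, CPM scaled by edgeR's TMM factors (totals 933263 to 1081081 a library), not counts. Steps between values gave whole reads for 99.99% or more of values in every library (tolerance 0.1 read). No 2 libraries of a line agreed within sampling noise (chi-square per degree of freedom at least 4.61).

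All genes were fitted with limma 3.58.1 on log2(CPM + 1), 24 libraries in 1 fit of the line (16 residual degrees of freedom), with a variance trend; MITF status used 8 line means (6 residual degrees of freedom). Adjusted p-values are Benjamini-Hochberg over 12010 genes. Alternatives included edgeR 4.0.16 and DESeq2 1.42.0 on the recovered reads, in R 4.3.3. Steps were tested on simulated data. Named are all members; pathway genes called in at least 3 of 7 comparisons with parental, otherwise the largest called change of a list; and the 5 genes most like Dusp6. Members, lists and tests were chosen with earlier results of these data known. Positions are from GENCODE vM39 and promoters from RefSeq. The replicate numbers of the labels did not pair the libraries.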

Additional observations from a re-analysis of the deposited data

Results flagged for a closer look

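For 14 pairs of a member and a factor, the effect of losing the factor differed between lines without and with MITF by a test of the difference itself (limma, adjusted p under 0.05 over all genes; values are log2 effects without MITF minus with MITF). For TFEB these were Dusp4 (-2.06), Dusp6 (1.77), Spry1 (1.12), Spred1 (0.34), Etv5 (1.49) and Phlda1 (-0.28). For TFE3 they were Dusp6 (1.71) and Phlda1 (-0.26). For TFEB and TFE3 together they were Dusp4 (-1.84), Dusp6 (2.26), Spry1 (1.35), Spred1 (0.62), Etv5 (2.38) and Phlda1 (-0.48). Of all genes, 35.1% passed for TFEB, 20.2% for TFE3 and 41.4% for both. These tests share the parental and MITF KO libraries. The Phlda1 difference for TFE3 (adjusted p = 0.0451) and the Spred1 difference for TFEB (adjusted p = 0.0413) lie close to the threshold. The former was lost without any single library of the 4 lines it compares and with edgeR (adjusted p = 0.0544), and the latter without parental replicate 1 or 2, MITF KO replicate 1 or 3, TFEB KO replicate 1 or 3 or MITF/TFEB DKO replicate 2. The Phlda1 difference for TFEB (adjusted p = 0.0196) was lost without parental replicate 2, TFEB KO replicate 1 or MITF/TFEB DKO replicate 1, and all 3 were lost with quantile normalization. The cause of these differences was not tested.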

How the results depend on the processing

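No called member result changed direction under any alternative. Of 56 pairs with parental, the 12 called lower became 11 with a pseudocount of 5, Etv5 in the TKO being lost. They became 8 among genes with a mean of at least 5 CPM, which removes Etv4, and 12 to 13 with a replicate left out. The 0 called higher became 2 with a pseudocount of 0.25, with edgeR and with DESeq2 (Spry1 in the TKO and the MITF/TFEB DKO), and 0 to 1 with a replicate left out (1 without parental replicate 3). Among lines without MITF, the 5 called higher became 10 with a pseudocount of 0.25, 3 with a pseudocount of 5, 10 with edgeR and 11 with DESeq2, through Spry1, Etv4 and Etv5. By MITF status, the 4 lower became 2 without the parental line, the TFE3 KO, the TFEB KO, the TFEB/TFE3 DKO or the MITF/TFEB DKO, and in a fit of all 24 libraries 2 were higher and 6 lower. The 74 calls of pathway genes became 41 with a pseudocount of 5 and 48 with the filter, which tests fewer genes. The 14 interactions ranged from 11 to 15 with a replicate left out. The cause of the other changes was not tested. Libraries with the same replicate number did not deviate together (correlation -0.66 to 0.77, mean 0.0222); with the replicate block 12 pairs with parental were again lower and 13 interactions passed, Phlda1 for TFE3 being lost, and the block changed no other member call. Depth limits Spry1 (3 to 65 reads) and Etv4 without MITF (0 to 14 reads).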
